A study of Mus musculus with 12 samples.

Results

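mmu-miR-33, mmu-miR-378, mmu-miR-34a and mmu-miR-802, written below without the species prefix, are microRNAs that act on lipid, mitochondrial and glucose metabolism, and they were taken by exact ID from a table of 710 mouse miRNAs, in which all 4 were present. The table came from a miRNA array hybridised with total RNA of peripheral blood from Tff3 KO mice (n = 6) and WT mice (n = 6), and each genotype had 3 females and 3 males. The peptide made from Tff3, trefoil factor 3, is secreted with intestinal mucus. The labels give the genotype as a knockout and the text on the design as a knock-down, and the array held no probe for Tff3 itself. The labels name no strain, age or allele, nor the cells in which the gene was removed. No treatment was named.

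microRNAs are short RNAs that pair through their seed, bases 2 to 8, with messenger RNAs and lower their output. miR-33 lies in an intron of Srebf2, the gene of a transcription factor that switches on cholesterol synthesis, and represses the cholesterol exporter Abca1. miR-378 lies in Ppargc1b, a coactivator of mitochondrial genes, and is abundant in muscle and fat. miR-34a is induced by p53 and represses the deacetylase Sirt1. miR-802 is known from liver and pancreas. Blood is not known as the main site of any of them.

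The mature sequences are shown with their seeds. The relatives of the 4 miRNAs were listed by ID and not picked by a seed search, and they include passenger strands with other seeds. No sequence of miR-378 is given, its seed was not compared, and its other strand stands alone as its relative. The sequences come from RefSeq, build GRCm38.p6, where 9 of 11 IDs looked up had an entry. Unstarred IDs were read as the guide strand, starred IDs as the passenger strand, and the seed is in capitals.
miR-33: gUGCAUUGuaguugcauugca
miR-33*: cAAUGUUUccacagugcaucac
miR-34a: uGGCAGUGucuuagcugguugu
miR-34b-5p: aGGCAGUGuaauuagcugauugu
miR-449a: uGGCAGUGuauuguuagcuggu
miR-449c: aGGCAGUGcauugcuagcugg
miR-802: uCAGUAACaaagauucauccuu
miR-33 lies at chr15:82198127-82198147 on the plus strand, inside the span of Srebf2. miR-34a lies at chr4:150068473-150068494 and miR-802 at chr16:93369737-93369758, both on the plus strand, and no other gene of the RefSeq table spanned either hairpin. Among 1679 mature miRNA names compared, the seed of miR-33 and that of miR-802 each occurred in 1 name, their own. The seed of miR-34a occurred in 4, namely miR-34a, miR-34b-5p, miR-449a and miR-449c. Aligned from base 1 without gaps, miR-449a matched miR-34a at 15 of 22 bases, miR-449c at 12 of 21 and miR-34b-5p at 11 of 22. miR-34c and miR-449b, also of this family, had no entry, so the count of 4 could not include them and they are named only.

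Deposited intensities had medians of 72 to 188 and sums of 391740 to 1111471 per array, and 3.31% of values lay below 0. WT arrays carry the column numbers 7 to 12, which match no label, and are called by them. Levels below are log2(quantile-normalized intensity + 50), in which quantile normalization gives every array the same distribution and 50 keeps values above 0. A difference is the mean level in Tff3 KO minus that in WT, and the offset makes it smaller for dim miRNAs. Folds are taken from this difference, so they compare intensity + 50 and do not bound the fold of a dim miRNA itself. Some miRNAs of blood cells were bright, with mean levels of 15.31 for the erythroid miR-486, 11.62 for the lymphocyte miR-150 and 10.91 for the myeloid miR-223. Others were dim, at 7.19 for the lymphocyte miR-181b and 6.51 for the leukocyte miR-142-3p. Of the miRNAs listed for hepatocytes, miR-194 stood at 11.69, miR-192 at 10.72 and miR-122 at 9.04. In such bulk RNA, fewer cells of a type and less RNA per cell cannot be told apart.

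None of the 4 miRNAs passed the test between Tff3 KO and WT blood, and miR-33 and miR-802 had positive and miR-378 and miR-34a negative differences. limma, fitted on all miRNAs with Benjamini-Hochberg adjustment, called 0 of the 4 at an adjusted p of 0.05, against 0 of 710 overall (0%). An unadjusted p under 0.05 was reached by 0 of the 4 and by 9.01% of all miRNAs, and groups did not overlap for 0 of the 4 and for 0.704% of all. The smallest adjusted p on the table was 0.135. By the exact Wilcoxon rank-sum test the count over all miRNAs was 0, with a smallest adjusted p of 0.307. This count cannot decide the question, since that test has only 924 arrangements and its p-values are coarse. Its smallest p needs groups that do not overlap, and too few miRNAs had these to pass the adjustment over 710.

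mmu-miR-33, the intronic partner of Srebf2, read 80, 176, 32, 88, 56 and 68 in KO 1 to KO 6, against 36, 64, 32, 8, 64 and 124 in WT 7 to WT 12. These readings lay below the median of their own array on all 12 arrays, and the table carries no detection call. After normalization the level was 7.0 ± 0.19 in KO and 6.66 ± 0.42 in WT (SD, n = 6 each). All 6 KO mice lay above the WT mean, a pattern that 9.58% of all miRNAs showed, and WT 9, WT 10 and WT 7, at 6.19, 6.12 and 6.69, were below every KO mouse. The groups overlapped, since the other 3 WT mice lay within the KO range. The difference was 0.34 with a standard error of 0.19 and a 95% interval of -0.059 to 0.74, or 0.960-fold to 1.67-fold (limma's adjusted p = 0.617). The exact two-sided permutation test gave p = 0.0996 for miR-33, 0.377 for miR-378, 0.331 for miR-34a and 0.216 for miR-802, with no adjustment. On columns 1 to 8 alone, which set all KO arrays against WT 7 and WT 8, the difference of miR-33 was 0.22. By value WT 7 and WT 8 match the WT mice labelled 1 and 2, both males, so this split may mix sex with genotype.

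The passenger strand miR-33* is cut from the same hairpin. Its intensity ran from 36 to 164 in KO and from 48 to 104 in WT. The level was 7.0 ± 0.40 in KO and 7.04 ± 0.27 in WT, a difference of -0.037 with a standard error of 0.19 (limma's adjusted p = 0.959). The difference between the strands was not tested.

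mmu-miR-378, the miRNA of Ppargc1b, was the one of the 4 that read above the median of its array on all 12 arrays. Its intensity was 168, 428, 280, 316, 612 and 564 in KO 1 to KO 6, against 436, 572, 392, 384, 292 and 400 in WT 7 to WT 12. The KO mice held both the lowest and the highest readings, and the WT mice lay between them. The level was 8.65 ± 0.55 in KO and 8.89 ± 0.13 in WT (SD, n = 6 each). The difference was -0.24 with a standard error of 0.22 and a 95% interval of -0.69 to 0.22, or 0.618-fold to 1.16-fold (limma's adjusted p = 0.799). It was -0.048 without KO 1, the lowest mouse at 7.69. Scaling to the 75th percentile gave -0.14, no normalization -0.13 and columns 1 to 8 alone -0.15.

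The spread of miR-378 was wider among KO mice, with levels from 7.69 to 9.22, than among WT mice, with levels from 8.71 to 9.05. This ratio of standard deviations was singled out after its value was seen and is given with no test. KO over WT it was 4.25 for miR-378, a value that only 2 of the 710 miRNAs reached, itself included, while the median over all was 0.828. Without KO 1 the ratio was 2.54. For miR-33, miR-34a and miR-802 it was 0.460, 0.557 and 0.618. miR-378*, the other strand of the hairpin, read 56 to 136 in KO and 8 to 136 in WT, with levels of 7.09 ± 0.29 in KO and 7.08 ± 0.52 in WT (limma's adjusted p = 0.994).

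mmu-miR-34a, the p53-induced miRNA, read close to 0 on several arrays. Its intensity was 24, 76, 28, 8, -8 and 32 in KO 1 to KO 6, against 48, 48, 88, 40, -28 and 68 in WT 7 to WT 12. No reading reached the median of its array, and KO 5 and WT 11 were below 0. The level was 6.17 ± 0.37 in KO and 6.49 ± 0.66 in WT (SD, n = 6 each). All 6 KO mice lay below every WT mouse other than WT 11, which at 5.17 was the lowest of the 12. The difference was -0.32 with a standard error of 0.27 and a 95% interval of -0.89 to 0.24, or 0.540-fold to 1.18-fold (limma's adjusted p = 0.764). Without WT 11 it was -0.58, with limma's adjusted p of 0.334. Scaling to the 75th percentile gave -0.15, cyclic loess -0.19, no normalization -0.18 and columns 1 to 8 alone -0.55. An offset of 1 gave -0.95, outside the interval above.

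The relatives of miR-34a had differences of both signs. miR-34b-5p, which has its seed, had a level of 6.42 ± 0.15 in KO and 6.67 ± 0.29 in WT, and all 6 KO mice lay below the WT mean. miR-449a had 5.57 ± 0.68 in KO and 5.93 ± 0.52 in WT, with readings below 0 in 3 KO and 2 WT mice. miR-449b and miR-449c differed by -0.20 and 0.058, with standard errors of 0.17 and 0.14. miR-34c had the smallest p among the relatives, at 7.07 ± 0.12 in KO and 6.71 ± 0.34 in WT, a difference of 0.36 with a standard error of 0.16 (limma's adjusted p = 0.521), and 0.75 on columns 1 to 8 alone. Its intensity was 60 to 156 in KO and 12 to 96 in WT. The passenger strands miR-34b-3p and miR-34c* differed by 0.20 and 0.084, with standard errors of 0.21 and 0.15. Over the 9 measured other strands and relatives of all 4 miRNAs, 5 differences were positive and 4 negative, with a median of 0.0058 beside -0.0015 over all 710, of which 49.4% were positive, and 0 were called.

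mmu-miR-802, known from liver, read 72, 176, 100, 64, 48 and 56 in KO 1 to KO 6, against 88, 16, 48, 72, 40 and 96 in WT 7 to WT 12. Of the 12 readings, 1 lay above the median of its array, that of KO 3. The level was 7.05 ± 0.30 in KO and 6.74 ± 0.48 in WT (SD, n = 6 each), and all 6 KO mice lay above the WT mean. The groups overlapped, since WT 7, WT 10 and WT 12, at 7.29, 7.19 and 6.91, lay within the KO range. The difference was 0.32 with a standard error of 0.22 and a 95% interval of -0.14 to 0.77, or 0.908-fold to 1.71-fold (limma's adjusted p = 0.701). It was 0.17 without WT 8, the lowest mouse at 6.02.

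Hepatocyte miRNAs varied between arrays beside miR-802. The list of miR-122, miR-192 and miR-194, all 3 measured and none at or below 0, summed to normalized intensities of 2723 to 12275 in KO and 4266 to 16485 in WT. Its mean level was highest in KO 6, WT 10, WT 11 and WT 12, at 11.98, 11.83, 11.52 and 12.39, and between 9.16 and 10.23 on the other arrays. miR-802 was at 6.88, 7.19, 6.57 and 6.91 on those 4 arrays, within the range of the rest.

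**Figure D1:**
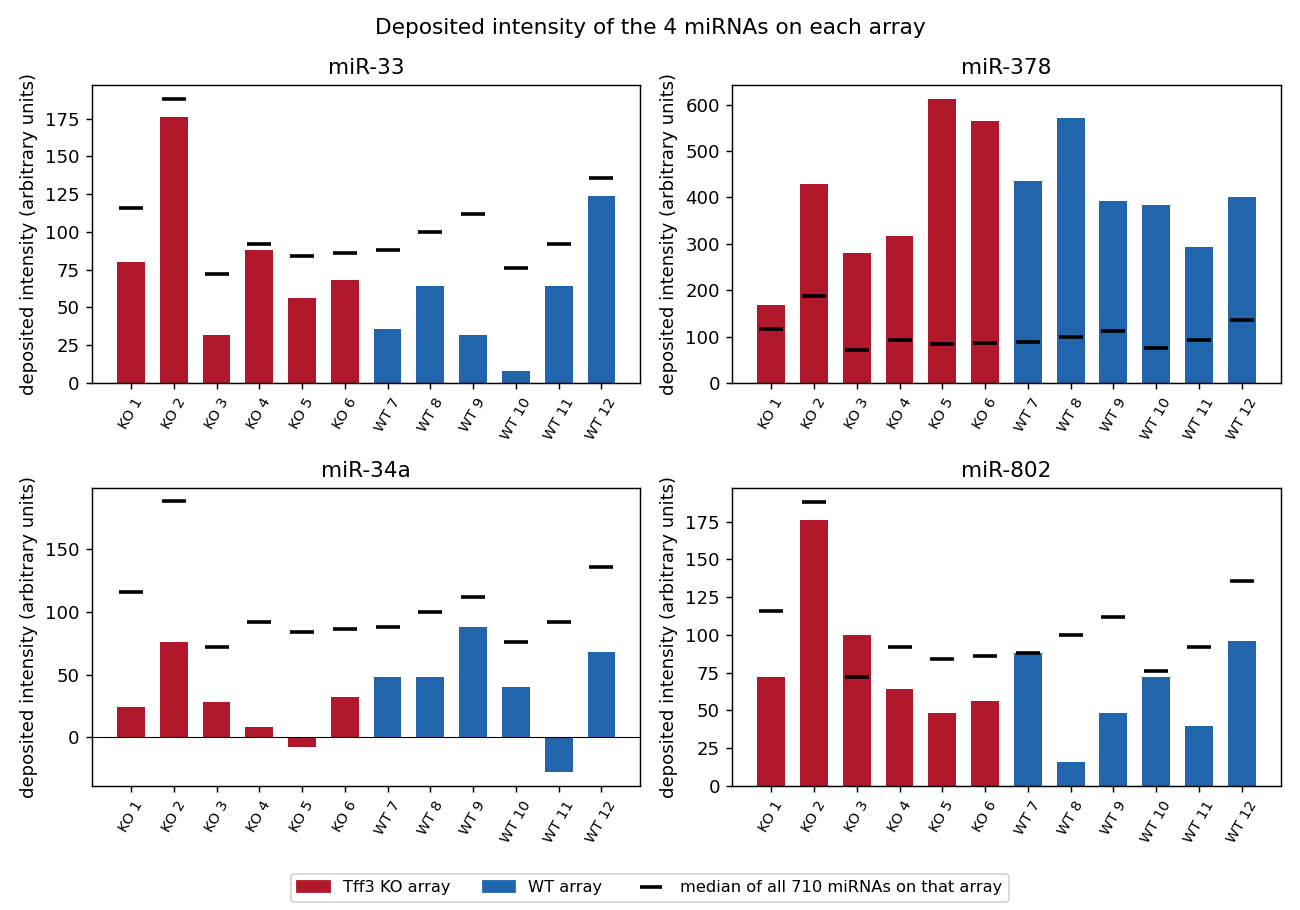
Deposited intensity (arbitrary units, linear axis starting at 0 or below) of the 4 miRNAs, with 1 bar per array, KO arrays on the left and WT arrays on the right, and a black dash at the median of all 710 miRNAs on that array. miR-378 stands above the dash on all 12 arrays, miR-33 and miR-34a on none and miR-802 on KO 3 alone.

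Other miRNAs of metabolism were looked at in 3 lists, and none of their members passed over all miRNAs. Among 13 miRNAs tied to cholesterol and lipids 6 differences were positive and 7 negative, with a median of -0.0013 beside -0.0015 over all 710. The smallest p-values there belonged to miR-335-5p, at 7.84 ± 0.14 in KO and 7.49 ± 0.085 in WT, miR-144, an erythroid miRNA that also represses Abca1, at 10.76 ± 0.79 and 9.74 ± 0.86, and miR-30c, at 11.55 ± 0.27 and 11.11 ± 0.40 (KO first in each; limma's adjusted p = 0.405, 0.415 and 0.490). Among 12 tied to glucose and insulin 7 were positive and 5 negative, with a median of 0.0083. There miR-107 and its paralogue miR-103, which lower insulin sensitivity in mice, differed by -0.79 and -0.51 with standard errors of 0.21 and 0.22, and miR-9 by 0.52 with a standard error of 0.25 (limma's adjusted p = 0.141, 0.50 and 0.546). miR-9 was near the level that an intensity of 0 has, at 5.96 ± 0.43 in KO and 5.45 ± 0.56 in WT. In the authors' values, which have a floor of 1, it differed by 0.18. Among 13 tied to mitochondria and fat tissue 6 were positive and 7 negative, with a median of -0.22. miR-696, which represses the coactivator Ppargc1a in muscle, differed by -0.72 with a standard error of 0.18, miR-208b, of slow muscle fibres, by -0.51 with 0.18, and miR-130b, which represses Pparg, by -0.43 with 0.23 (limma's adjusted p = 0.135, 0.405 and 0.586). On columns 1 to 8 alone miR-30c differed by 0.012, miR-107 by -0.33, miR-9 by 1.13, miR-103 by 0.058 and miR-130b by 0.080. There miR-335-5p differed by 0.38, miR-144 by 1.24, miR-696 by -0.63 and miR-208b by -0.57.

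**Figure D2:**
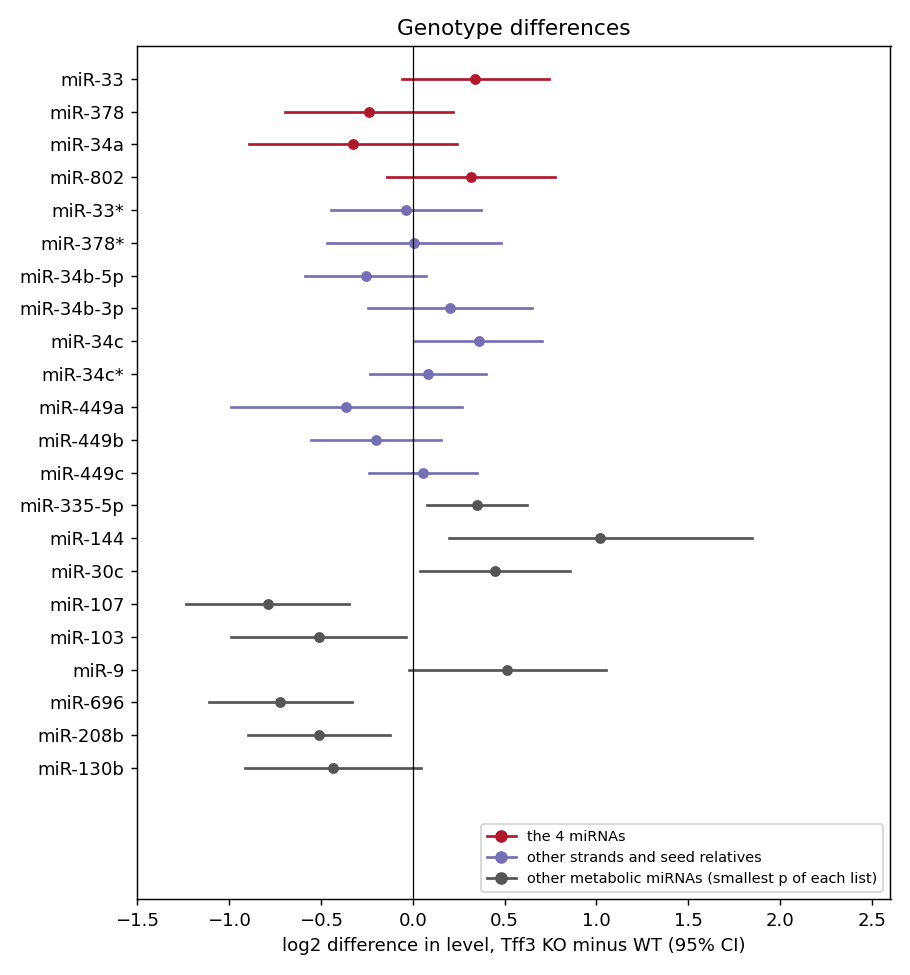
Difference in level between Tff3 KO and WT (log2 scale, points) with 95% confidence intervals (lines) for the 4 miRNAs, their other strands and seed relatives, and the other metabolic miRNAs with the smallest p-values of each list. The intervals of the 4 miRNAs all include 0, from -0.059 to 0.74 for miR-33 to -0.89 to 0.24 for miR-34a.

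Sex was compared in the authors' own normalized values, whose columns are named by sample. In these the labels give the sex of every mouse. In both genotypes the mice labelled 1 to 3 are males and those labelled 4 to 6 females, so sex and label order cannot be told apart. With genotype as a covariate, limma called 0 of the 4 miRNAs and 1 of 710 (0.141%), which was the hepatocyte miRNA miR-122. An unadjusted p under 0.05 was reached by 1 of the 4, miR-378, and by 12.3% of all miRNAs.

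miR-378 had a level of 8.86 ± 0.16 across the 6 females and 8.45 ± 0.42 across the 6 males (± is the SD), a difference of 0.41 with a standard error of 0.17 and a 95% interval of 0.039 to 0.79 (limma's adjusted p = 0.338). Without KO 1 it was 0.26. In KO mice the levels were 8.64, 9.07 and 8.98 in females and 7.66, 8.30 and 8.64 in males. In WT mice they were 8.89, 8.70 and 8.91 in females and 8.76, 8.61 and 8.74 in males. KO males were thus the lowest of the 4 groups, at 8.20 ± 0.50 (SD, n = 3). The KO minus WT difference was 0.065 in females and -0.50 in males, with standard errors of 0.17 and 0.26. The interaction of genotype and sex was 0.56 with a standard error of 0.33, and a 95% interval of -0.14 to 1.27 (limma's adjusted p = 0.679). It was 0.29 without KO 1 and 0.78 without KO 3. That interaction was called for 0 of the 4 miRNAs and 0 of 710 (0%), with an unadjusted p under 0.05 for 0 of the 4 and 5.92% of all.

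Muscle miRNAs too were higher in KO females than in KO males, with no test made. All 4 of the list miR-1, miR-133a, miR-133b and miR-206 were measured, with 2 of 48 readings at or below 0. Their mean level was 7.94 ± 0.092 in KO females, 7.09 ± 0.33 in KO males, 7.21 ± 0.27 in WT females and 7.23 ± 0.14 in WT males (SD, n = 3 each). Their summed normalized intensity was 281 to 1305 in KO and 330 to 846 in WT, and lowest in KO 1, where miR-378 was lowest too. The lymphocyte list, miR-150, miR-342-3p, miR-181a and miR-181b, all 4 measured and none at or below 0, was also lowest in KO 1, with summed normalized intensities of 1967 to 6138 in KO and 3492 to 6343 in WT. KO 1 also had the lowest sum of the hepatocyte list, at 2723, and the highest of the erythroid list, miR-451, miR-144, miR-486 and miR-16, which ran from 72642 to 96332 in KO and from 68702 to 85133 in WT. The leukocyte list, both strands of miR-142, had its highest mean level of all arrays in KO 1, at 9.30. Its summed normalized intensity there, 2278, was the highest in KO, while WT sums ran from 536 to 2771. The part of these lists in the result was not tested.

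None of the other 3 miRNAs reached an unadjusted p under 0.05 for sex. miR-34a was at 6.16 ± 0.48 in females and 6.54 ± 0.37 in males, a difference of -0.37 with a standard error of 0.20 (limma's adjusted p = 0.432), and KO 5 and the WT mouse labelled 5, both females, stood at the floor of 1 that the authors' values have. Its KO minus WT difference was -0.32 in females and -0.52 in males, with standard errors of 0.34 and 0.21, and the interaction was 0.21 (limma's adjusted p = 0.894). The 3 KO males lay below the 3 WT males, a separation in either direction that 1 of the 4 miRNAs and 12.5% of all 710 showed in males, against 0 of the 4 and 15.2% in females. miR-33 was at 6.87 ± 0.42 in females and 6.74 ± 0.34 in males. miR-802 was at 6.87 ± 0.20 in females and 6.87 ± 0.59 in males. Its KO minus WT difference was 0.64 in males, with a standard error of 0.34, and 0.000083 in females, with 0.19, and the interaction was -0.64 with a standard error of 0.42 (limma's adjusted p = 0.735).

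**Figure D3:**
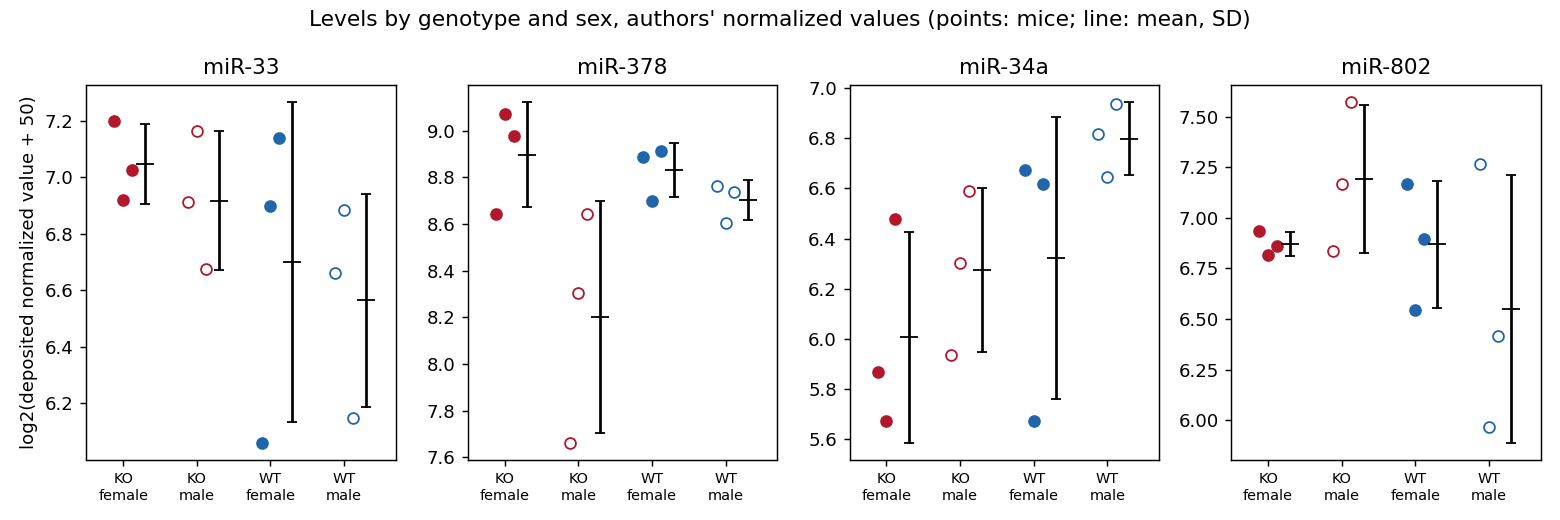
Level of the 4 miRNAs by genotype and sex, as log2 of the authors' normalized value plus 50, with 1 point per mouse (filled for females, open for males) and the mean with its SD beside each group of 3. For miR-378 the KO males, at 8.20 ± 0.50, lie lowest on average, and for miR-34a the KO and WT females overlap while the males do not, as for 12.5% of all miRNAs.

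Likeness of pattern was measured over the 12 arrays. Pearson's r between the levels of the 4 miRNAs, which share arrays and normalization and are given as a description, ran from -0.46 for miR-33 and miR-34a to 0.15 for miR-378 and miR-34a. Without normalization those 2 values were 0.065 and 0.18. The patterns most like that of miR-378 were those of miR-483, miR-1981 and miR-425, with r of 0.83 for each over 12 arrays. Without normalization these values were 0.91, 0.45 and 0.71, which ranked miR-483 at 1, miR-1981 at 97 and miR-425 at 32 among all miRNAs. Within the KO mice the 3 values were 0.97, 0.88 and 0.98 and within the WT mice 0.28, 0.62 and -0.43. Nearest to miR-33 were miR-875-3p, miR-1190 and miR-1957 with r of 0.78, 0.78 and 0.75, to miR-34a miR-331-5p, miR-804 and miR-22* with 0.81, 0.78 and 0.72, and to miR-802 miR-669g, let-7f* and miR-291a-3p with 0.73, 0.68 and 0.66. Without normalization these ranked at 22, 14 and 10 for miR-33, at 2, 1 and 20 for miR-34a, and at 1, 3 and 12 for miR-802. For miR-33 the values were -0.52, 0.35 and 0.26 within the KO mice and 0.97, 0.81 and 0.83 within the WT mice.

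**Figure D4:**
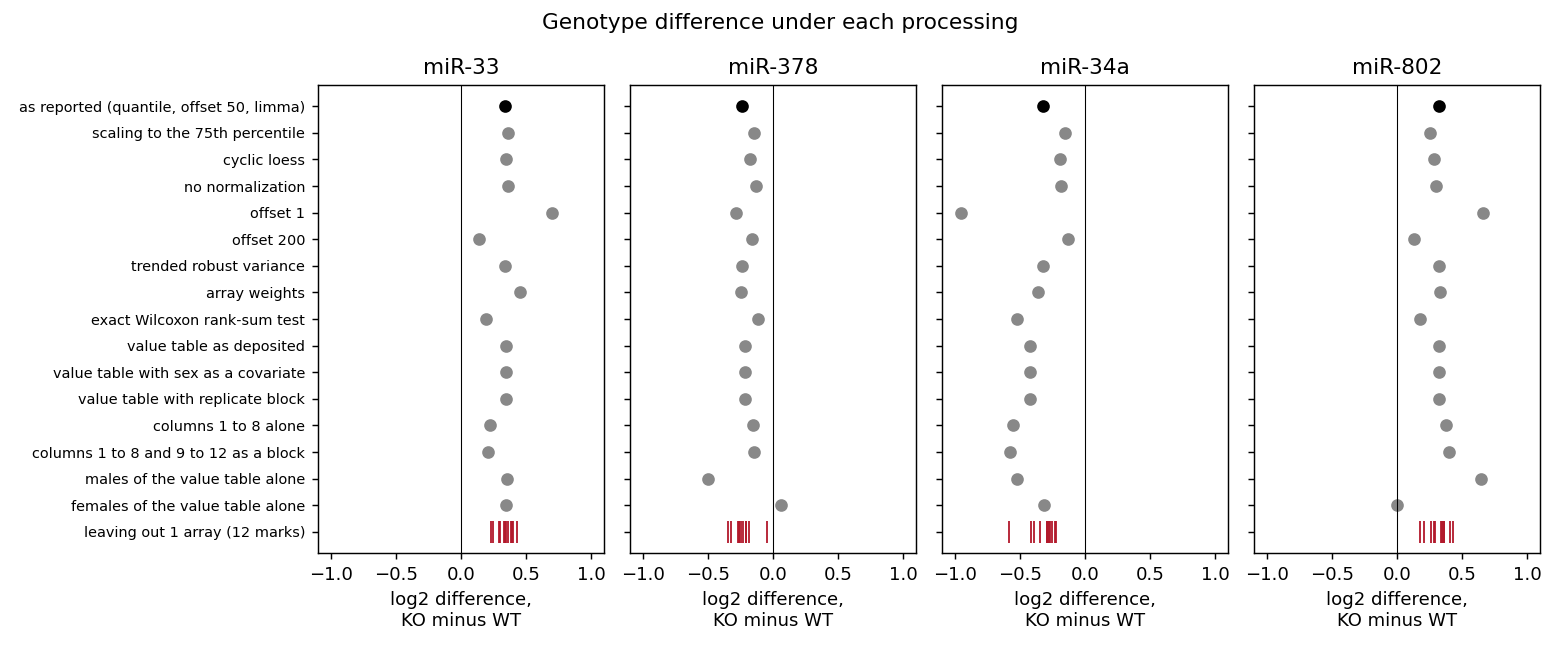
Difference in level between Tff3 KO and WT (log2 scale) of the 4 miRNAs under each way of processing, with the reported value in black, alternatives in grey and 12 red marks for leaving out 1 array each. Differences of miR-33, miR-34a and miR-802 keep their sign in each row, some of which repeat one estimate under another test, that of miR-802 is 0.000083 in females, and that of miR-378 is above 0 in females alone, at 0.065.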

How the data were processed

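RNA of 12 blood samples was labelled with biotin by a primer extension assay on a miRNA array, per the labels' protocols. The authors deposited a table of linear intensities, which look background-subtracted but not normalized between arrays. They also deposited a second table of intensities, quantile-normalized as far as its values show, with a floor of 1. Neither scanner nor background method is given in the sources used here. Columns were assigned by name. WT columns 7 to 12 of the first table match no label number, so sex was tested in the second table only. On WT 7 to WT 12 miR-33 was at 6.69, 6.90, 6.19, 6.12, 6.92 and 7.16. In the authors' values it was at 6.66, 6.88, 6.15, 6.06, 6.90 and 7.14 in the WT mice labelled 1 to 6. The order was the same, also for miR-378, miR-34a and miR-802, but columns were not assigned by it.

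Intensities were quantile-normalized, transformed to log2(value + 50) and tested two-sided with limma 3.58.1 in R 4.3.3 (lmFit, eBayes), with p-values adjusted by Benjamini-Hochberg over the 710 miRNAs and called at 0.05. A filter requiring a value above the array's lowest on at least 6 arrays removed none. The fit was tested on simulated data. Sequences were read with Python 3.11.15 and figures drawn with matplotlib 3.10.9. The miRNAs and lists were chosen with earlier results of these data known. Beyond the 4, those named are their other strands and seed relatives, the 3 smallest p-values of each list, and the 3 highest correlations per miRNA. miR-122 as the call for sex and the spread of miR-378 were chosen after values were seen. The number of arrays limits the precision.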

Additional observations from a re-analysis of the deposited data

Results flagged for a closer look

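Each of 22 named miRNAs was examined in both genotypes, and in 3 of these 44 sets of 6 arrays (6.82%) a single array stood well apart, where chance gives about 5%. miR-34a in WT 11 was lower than the mean of the other WT arrays by a difference of -1.59 on the log2 scale, with a reading of -28. miR-33* in KO 1 differed from the other KO arrays by -0.93, with a reading of 36. miR-449a in KO 5 differed by -1.57, with a reading of -32.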

How the results depend on the processing

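The genotype difference of the 4 miRNAs stayed short of the threshold under every alternative run, with adjusted p-values of 0.331 or more for miR-33, 0.592 for miR-378, 0.334 for miR-34a and 0.452 for miR-802. The difference of miR-378 was 0.065 in females alone, and no other of the 4 changed sign in the alternatives run. Leaving out each array gave 0.23 to 0.43 for miR-33, -0.35 to -0.048 for miR-378, -0.58 to -0.22 for miR-34a and 0.17 to 0.42 for miR-802. An offset of 1 gave 0.70, -0.28, -0.95 and 0.66, and one of 200 gave 0.14, -0.16, -0.13 and 0.13, in the same order. miR-33, miR-34a and miR-802 lay under the median level and had no value when only miRNAs at or above it were tested. Whether the replicate numbers pair the samples stayed unsettled. Of the same-numbered pairs 2 of 6 correlated over 0.1, and 2 of 6 KO samples correlated best with their own number. These counts had no chance level beside them, and the numbers go with sex. With the replicate number as a block in the authors' values the differences were 0.35, -0.22, -0.42 and 0.32, and no call changed.

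miR-33* went to 0.023 with array weights, 0.086 by medians in the Wilcoxon test and 0.082 in females, and ran from -0.11 to 0.12 over single arrays left out. miR-378* went to -0.011 with an offset of 200, -0.069 by medians and -0.21 in males, and ran from -0.19 to 0.12. On columns 1 to 8 alone, a split known from earlier results that sets all KO against WT 7 and WT 8, miR-378*, miR-34b-3p, miR-34c*, miR-103 and miR-130b stood at -0.033, -0.23, -0.12, 0.058 and 0.080. With columns 1 to 8 and 9 to 12 as blocks, these values were -0.035, -0.24, -0.11, 0.069 and 0.077. WT 7 and WT 8 match males by value, so these comparisons may mix sex with genotype. miR-34c* was -0.085 in males and miR-449c -0.14 in females. The cause was not tested in any of these. The count of all miRNAs called for genotype was 0 to 1 when single arrays were left out (1 without WT 12).

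The sex difference of miR-802 was 0.32 within WT and ran from -0.17 to 0.12 over samples left out, and the interaction ran from 0.29 to 0.78 for miR-378, from -0.32 to 0.22 for miR-33 and from -0.11 to 0.39 for miR-34a. The count called for sex was 0 within the KO arrays of the first table and 0 to 5 over samples left out. It was 5 without KO 3 and 0 without KO 1, KO 2 or any 1 of the 6 WT samples. Splits by sex and leaving samples out of the interaction were added after the data were seen.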

Other observations

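The single miRNA called for sex, miR-122 of hepatocytes, was higher in females by 3.44 on the log2 scale of the authors' values, with a standard error of 0.60 (limma's adjusted p = 0.036). Its level was 9.38 ± 2.40 in KO females, against 6.67 ± 0.012 in KO males (SD, n = 3 each). In WT mice it was 11.93 ± 0.65 in females, against 7.76 ± 0.75 in males. All 3 females lay above all 3 males in each genotype. Sex and label order cannot be told apart here, and the call was lost without KO 1, KO 2 or any 1 of the WT samples.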
